A study of Mus musculus with 15 samples.

Results

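The comparison set the complete material of the study against irradiated cells that met no material. In the first group, Gel/Laponite@IL-12, mouse BM-MSCs had received 5 Gy of radiation and were then kept for 48 h with an alginate gel that carries the cell-binding peptide RGD, the nanoclay Laponite and the cytokine IL-12. In the second, IR-Con, the same cells had received the same dose and were kept for the same time without a gel. The cells of both groups were C57BL/6 cells bought from a company and used at an early passage. Both groups were irradiated, so the values below do not measure the effect of radiation. Whether a difference arose through a changed response to radiation was not tested. Each group had 3 libraries, which makes 6 of the 15 libraries of the series. The other 9 came from irradiated cells kept with Gel, Gel/IL-12 or Gel/Laponite, and they enter only where the complete gel is set against those gels. The labels do not say that the 3 libraries of a group came from separate cultures, and the paper describes its data in general as coming from separate experiments without naming the sequencing libraries, so the p-values measure the spread between these libraries, which may be technical.

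BM-MSCs are the stromal cells of the marrow that can form bone, fat and cartilage. They also hold and feed blood stem cells by secreting factors such as Cxcl12. IL-12 is a cytokine of innate immunity best known for acting on T cells and natural killer cells, through a pair of receptor chains that signal over JAK kinases and STAT4. Stromal cells that sense inflammation secrete chemokines, which draw blood cells in, and acute-phase proteins, which bind iron, lipid or microbes.

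The total count was 15147272 to 16126329 in Gel/Laponite@IL-12 and 14506459 to 16568349 in IR-Con. Levels are given as CPM, the read count of a gene relative to the scaled total of its library, with TMM scaling over all 15 libraries, and 14748 of the 54532 genes of the table passed the filter on low counts and were tested. Markers of mesenchymal stem cells summed to 5303 to 5353 CPM in Gel/Laponite@IL-12 and to 4772 to 5450 CPM in IR-Con. The sum holds changes in both directions. By the test described below, 6 of the 18 tested markers were higher in Gel/Laponite@IL-12 and 4 were lower, beside 16.1% and 14.3% of all genes tested. Under 1 CPM in all 6 libraries were 12 of 16 macrophage markers, 11 of 14 granulocyte markers, 14 of 15 lymphoid markers, 13 of 15 erythroid markers and 4 of 11 blood stem cell markers. The summed granulocyte markers had 5.47 to 6.59 CPM in Gel/Laponite@IL-12 and 0.972 to 4.16 CPM in IR-Con, and the summed lymphoid markers had 7.93 to 9.03 CPM in Gel/Laponite@IL-12 and 15.1 to 18.8 CPM in IR-Con. Erythroid sums were 19.3 to 20.5 CPM in Gel/Laponite@IL-12 and 21.9 to 32.2 CPM in IR-Con. Osteoclast sums were 51.6 to 59.8 CPM in Gel/Laponite@IL-12 and 61.9 to 69.9 CPM in IR-Con. The ranges overlapped for macrophage markers, with 15.6 to 19.8 CPM in Gel/Laponite@IL-12 and 19.1 to 23.2 CPM in IR-Con, and for blood stem cell markers, with 1072 to 1150 CPM in Gel/Laponite@IL-12 and 1071 to 1311 CPM in IR-Con. The sum of blood stem cell markers was not split by gene, and whether it came from such cells was not tested. The IR-Con libraries differed more from each other, with a coefficient of variation beyond counting noise of 17.1% against 3.77% in Gel/Laponite@IL-12. IR-Con replicate 3 stood apart, with 1.91% of its counts in mitochondrial genes against 2.79 to 2.9% in Gel/Laponite@IL-12 and 2.49 to 2.57% in the other IR-Con libraries. Counts that move by more than 1.5 times without it are given with and without it.

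The 2 groups differed in 4484 genes by edgeR's quasi-likelihood test with an adjusted p under 0.05, which was 30.4% of the genes tested. Of these, 2374 were higher in Gel/Laponite@IL-12 (16.1%) and 2110 were lower (14.3%). The counts of gene lists below are to be read beside these shares. Most differences were small. At least 2-fold higher were 589 genes (3.99%) and at least 2-fold lower were 548 (3.72%), whereas 2156 called genes differed by less than 1.5-fold. Log2 fold changes are given below as the value ± SE, also where they stand alone in brackets. The first principal component of the 6 libraries held 69.2% of the variance and parted the groups. In 46.6% of the genes tested the groups did not overlap. Without overlap, 24.7% were higher in Gel/Laponite@IL-12 and 21.9% were lower. Leaving out any one of the Gel/Laponite@IL-12 libraries lowered the number of calls to 2677, 2738 or 2638, and leaving out IR-Con replicate 3 raised it to 6276.

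The genes with the largest rise encode secreted defence proteins and chemokines, and those with the largest fall include an insulin-like growth factor carrier and several matrix proteins. Where groups did not overlap and the mean reached 10 CPM, Lcn2, Saa3, Cxcl5, Hp and Ptx3 stood highest and Igfbp5, Aspn, Edil3, Cilp and Tnfrsf19 stood lowest. Some of the highest had sequences that other genes share. Gm11808 had 346, 370 and 319 CPM in Gel/Laponite@IL-12, against 23.9, 47.0 and 17.3 CPM in IR-Con, but only 5.5% of the 50-base windows of its sequence occur in no other gene. For Prl2c2, a member of the proliferin cluster with 62.8, 61.0 and 55.3 CPM in Gel/Laponite@IL-12, against 6.92, 6.21 and 3.69 CPM in IR-Con, this share was 16.7%, so reads of these genes could belong to a near copy.

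**Figure D1:**
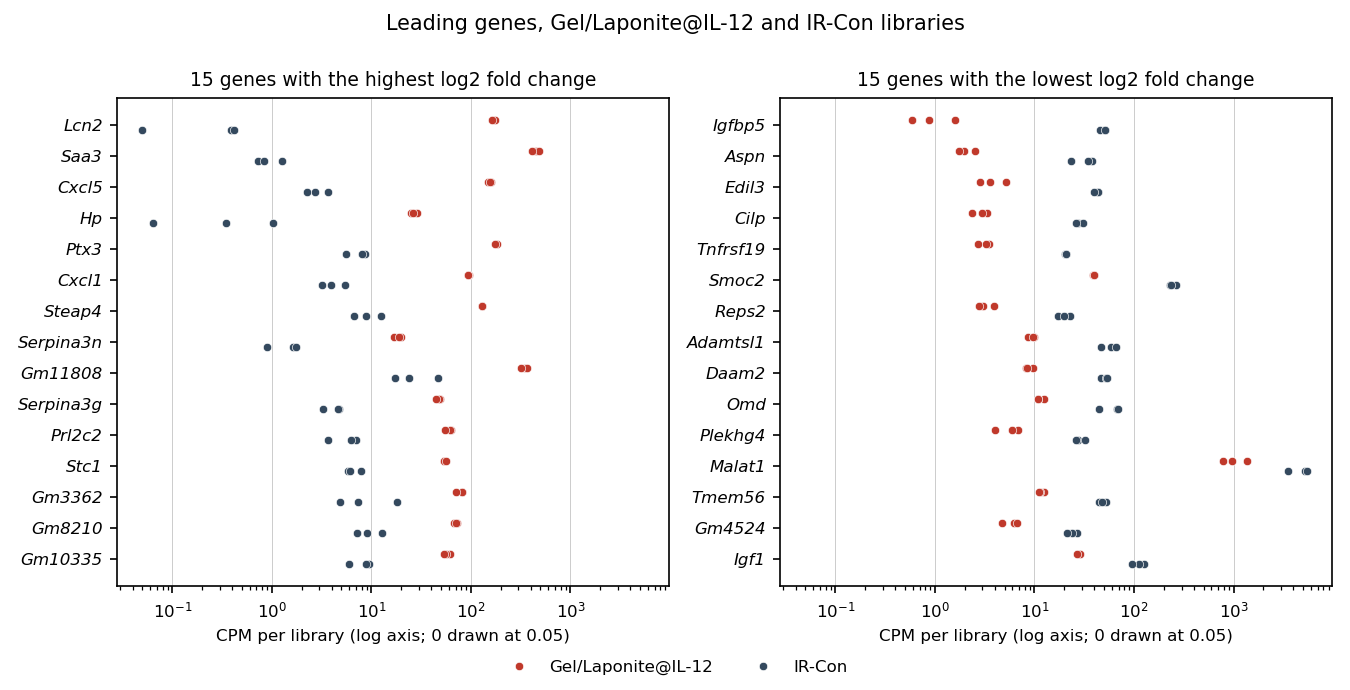
CPM of the 15 genes with the highest and the 15 with the lowest log2 fold change in each library, on a log axis, with Gel/Laponite@IL-12 libraries in red above IR-Con libraries in dark blue and a level of 0 drawn at 0.05. The 30 genes were chosen among called genes that reached a minimum mean level and whose groups did not overlap. That the 3 libraries of one group lie wholly on one side of the other 3 follows from this choice. The IR-Con libraries of Hp run from 0.064 to 1.03 CPM.

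Acute-phase proteins gave the largest rise of any list. Of 27 genes of the list 16 passed the filter, 14 rose, 1 fell and 1 did not pass the test, with a median log2 fold change of 3.62 against -0.01 for all genes tested. The promoters below belong to 4 members with high levels and to the complement gene C3, which is not on this list, and hold the letters of a C/EBP site, TTGCNNAA on either strand, in the 250 bases before the start. C/EBP factors are known to drive acute-phase genes. Of 18 promoters of 14 tested members that RefSeq lists, 10 (55.6%) held these letters, against 7.41% of the promoters of all genes tested and 9.56% of all promoters. The match is one of letters and shows no binding. The stretches lie on GRCm38.p6 at chr2:32387900-32387979 (Lcn2, minus strand), chr7:46715727-46715806 (Saa3, minus strand), chr5:7960352-7960431 (Steap4, plus strand), chr3:66219797-66219876 (Ptx3, plus strand) and chr17:57228137-57228216 (C3, minus strand). They are written 5′ to 3′ on the strand of the gene, from RefSeq, with the site in capitals.
Lcn2: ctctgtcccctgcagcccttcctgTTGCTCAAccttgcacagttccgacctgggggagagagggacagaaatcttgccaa
Saa3: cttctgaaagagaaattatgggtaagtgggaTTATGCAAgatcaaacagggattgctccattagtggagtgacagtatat
Steap4: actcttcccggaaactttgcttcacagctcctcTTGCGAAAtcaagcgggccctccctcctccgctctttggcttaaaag
Ptx3: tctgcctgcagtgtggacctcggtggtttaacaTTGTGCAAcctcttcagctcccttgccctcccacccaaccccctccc
C3: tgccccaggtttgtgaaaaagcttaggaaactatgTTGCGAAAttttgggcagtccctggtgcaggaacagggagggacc

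Lcn2 encodes lipocalin 2, which binds the iron carriers of bacteria, and lies on GRCm38 chromosome 2, bases 32384633 to 32388252 of the minus strand. Its level was 168, 174 and 162 CPM in Gel/Laponite@IL-12, against 0, 0.384 and 0.417 CPM in IR-Con. These were 2544, 2724 and 2621 reads against 0, 6 and 6, so the gene was close to absent without a gel and its log2 fold change of 9.30 ± 0.25 rests on 12 reads in IR-Con. Saa3, the serum amyloid A gene that is active outside the liver, had 449, 484 and 413 CPM in Gel/Laponite@IL-12, against 0.729, 0.832 and 1.252 CPM in IR-Con (log2 fold change 8.91 ± 0.15). Every gel library stood more than 300 times above every IR-Con library of Saa3. Steap4, a metalloreductase induced by inflammation, had 129, 129.8 and 128 CPM in Gel/Laponite@IL-12, against 8.74, 12.3 and 6.75 CPM in IR-Con (log2 fold change 3.79 ± 0.16). Its 3 gel libraries lay within 1.5 CPM of each other.

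Ptx3 encodes a long pentraxin that tags microbes for uptake, and it rose to 179, 183 and 173 CPM in Gel/Laponite@IL-12, against 5.59, 8.64 and 8.14 CPM in IR-Con (log2 fold change 4.58 ± 0.14). Hp encodes haptoglobin, which binds free hemoglobin. It had 28.5, 25.2 and 25.9 CPM in Gel/Laponite@IL-12, against 1.03, 0.064 and 0.348 CPM in IR-Con, and its IR-Con libraries spread over 17, 1 and 5 reads. Inhibitors of serine proteases rose too, with 20.03, 17.01 and 18.96 CPM in Gel/Laponite@IL-12, against 1.64, 0.896 and 1.74 CPM in IR-Con for Serpina3n and a log2 fold change of 3.48 ± 0.14 for Serpina3g. The Serpina3 genes lie in a cluster of related copies on chromosome 12. Hpx, which encodes the heme carrier hemopexin, was the 1 member that fell, with 2.31, 2.17 and 1.55 CPM in Gel/Laponite@IL-12, against 4.86, 3.71 and 4.87 CPM in IR-Con (log2 fold change -1.16 ± 0.26). Saa1 had 36 reads over the 3 gel libraries and none in IR-Con, which makes it at least 11.95-fold higher against a floor of 3 reads over the group. With Saa1 at this bound the median of the list was 3.56. Both granulocyte markers that passed the filter were higher as well. Camp, an antimicrobial peptide gene, had 2.57, 3.01 and 2.29 CPM in Gel/Laponite@IL-12, against 0.121, 0.576 and 0.765 CPM in IR-Con (log2 fold change 2.43 ± 0.48), and Prtn3, a neutrophil protease gene, had 2.31, 3.07 and 2.85 CPM in Gel/Laponite@IL-12, against 0.121, 1.54 and 0.904 CPM in IR-Con (1.69 ± 0.55) and lost its call without any one of the Gel/Laponite@IL-12 libraries. The part of such cells in the acute-phase and chemokine values was not tested.

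Chemokines that attract neutrophils and monocytes rose by several fold. Of 14 tested chemokines 11 rose and 2 fell (median log2 fold change 1.49), and the same number rose or 1 more did when any library was left out. Both falls were lost without any one of the Gel/Laponite@IL-12 libraries or IR-Con replicate 1, and 1 was lost without IR-Con replicate 3. The next promoters hold the letters GGANTTTCC on either strand, a form of the NF-kB site, which is the element through which interleukin 1 and Toll-like receptors are known to induce these genes. Of 10 promoters of tested chemokines, 3 held it (30.0%), against 1.11% for the genes tested and 1.07% of all promoters. Those 3 are shown with that of Il6, which held it among the cytokines. They lie at chr5:90891145-90891224 (Cxcl1, plus strand), chr5:90903769-90903848 (Cxcl2, plus strand), chr5:92349000-92349079 (Cxcl10, minus strand) and chr5:30013034-30013113 (Il6, plus strand) of GRCm38.p6, with the site in capitals.
Cxcl1: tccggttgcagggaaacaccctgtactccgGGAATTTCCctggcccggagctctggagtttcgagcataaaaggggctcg
Cxcl2: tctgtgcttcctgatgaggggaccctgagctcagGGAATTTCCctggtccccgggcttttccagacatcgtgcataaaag
Cxcl10: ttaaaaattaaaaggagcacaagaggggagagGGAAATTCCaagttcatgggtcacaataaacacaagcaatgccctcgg
Il6: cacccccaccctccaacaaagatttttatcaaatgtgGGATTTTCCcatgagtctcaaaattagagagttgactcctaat

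Cxcl5 and Cxcl1 encode ligands of the neutrophil receptor Cxcr2. Cxcl5 had 160.2, 148 and 155 CPM in Gel/Laponite@IL-12, against 3.64, 2.24 and 2.71 CPM in IR-Con (log2 fold change 5.74 ± 0.14), and Cxcl1 had 95.9, 94.2 and 92.8 CPM in Gel/Laponite@IL-12, against 3.89, 5.37 and 3.20 CPM in IR-Con (log2 fold change 4.50 ± 0.15). Cxcl2, another ligand of the same receptor, stayed near 1 CPM, with 1.19, 1.60 and 1.43 CPM in Gel/Laponite@IL-12, against 0.121, 0.384 and 0.209 CPM in IR-Con. The groups did not overlap in any of the 3, with the gel higher, which held for 24.7% of all genes tested. Ccl2 and Ccl7, which call in monocytes through Ccr2, reached 300, 316 and 290.3 CPM in Gel/Laponite@IL-12, against 55.4, 63.2 and 52.6 CPM in IR-Con for Ccl2 and 253, 254 and 238 CPM in Gel/Laponite@IL-12, against 59.7, 66.8 and 44.0 CPM in IR-Con for Ccl7 (log2 fold changes 2.40 ± 0.09 and 2.13 ± 0.13). Cxcl10, a chemokine for T cells, had 55.3, 58.1 and 60.4 CPM in Gel/Laponite@IL-12, against 22.5, 20.7 and 14.3 CPM in IR-Con. Cxcl12, which retains blood stem cells in the marrow and was the most abundant chemokine here, had 1036, 989.6 and 1028 CPM in Gel/Laponite@IL-12, against 437, 414 and 429.5 CPM in IR-Con (log2 fold change 1.253 ± 0.07). The falls were Ccl25 with 12.4, 14.1 and 13.7 CPM in Gel/Laponite@IL-12, against 24.5, 15.7 and 18.5 CPM in IR-Con and Cx3cl1 with 31.2, 26.4 and 30.2 CPM in Gel/Laponite@IL-12, against 38.3, 32.4 and 44.1 CPM in IR-Con (log2 fold changes -0.55 ± 0.16 and -0.39 ± 0.13).

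Cytokines rose more often than all genes tested and fell about as often. Of 19 tested, 7 rose and 3 fell, beside 16.1% and 14.3% of all genes tested, and the median was -0.10. Il6, the main inducer of acute-phase proteins, had 11.9, 10.9 and 10.2 CPM in Gel/Laponite@IL-12, against 0.546, 0.832 and 0.626 CPM in IR-Con (log2 fold change 4.03 ± 0.23), and Lif, of the same family, had 14.2, 14.3 and 15.3 CPM in Gel/Laponite@IL-12, against 2.49, 2.37 and 1.95 CPM in IR-Con (2.68 ± 0.17). Il7, a growth factor of early lymphocytes, had 2.96, 2.81 and 2.85 CPM in Gel/Laponite@IL-12, against 0.85, 0.384 and 0.974 CPM in IR-Con. Il18 fell, with 0.725, 0.703 and 0.806 CPM in Gel/Laponite@IL-12, against 2.85, 2.11 and 2.23 CPM in IR-Con. Tnfsf11, the signal that makes osteoclasts, and Tnfrsf11b, its decoy receptor, moved apart. Tnfsf11 had a log2 fold change of 1.76 ± 0.37 and Tnfrsf11b one of -1.01 ± 0.22, with means of 2.65 ± 0.556 CPM in Gel/Laponite@IL-12, against 0.785 ± 0.287 CPM in IR-Con (SD, n = 3 each) for the ligand and 4.22 ± 0.947 CPM in Gel/Laponite@IL-12, against 8.53 ± 1.41 CPM in IR-Con (SD, n = 3 each) for the decoy.

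In the NF-kB list 14 of 25 tested genes rose and 0 fell (median 0.39), with 10 to 17 rising when a library was left out. They included feedback inhibitors and nuclear cofactors. Nfkbiz, an inducible nuclear coactivator, had 97.2, 102 and 104 CPM in Gel/Laponite@IL-12, against 27.7, 28.8 and 30.2 CPM in IR-Con (log2 fold change 1.80 ± 0.08), and Bcl3, a nuclear partner of p50, had 28.5, 30.4 and 30.7 CPM in Gel/Laponite@IL-12, against 8.44, 4.42 and 8.83 CPM in IR-Con (2.04 ± 0.21). Map3k8, a kinase downstream of Toll-like receptors, and Zc3h12a, an RNase that degrades cytokine mRNAs, had log2 fold changes of 1.57 ± 0.12 and 1.36 ± 0.14. The subunit gene Rela and the kinase genes Chuk and Ikbkb did not pass the test. Rela had 126, 131 and 121 CPM in Gel/Laponite@IL-12, against 125, 144 and 144 CPM in IR-Con. Chuk had 69.2, 75.01 and 78.6 CPM in Gel/Laponite@IL-12, against 88.6, 80.5 and 71.3 CPM in IR-Con. Ikbkb had a mean of 65.2 CPM in Gel/Laponite@IL-12, against 70.9 CPM in IR-Con. Among 26 genes of Toll-like receptor and interleukin 1 sensing, 9 rose and 2 fell. The endotoxin carrier Lbp and the co-receptor Cd14 rose to 177, 182 and 186 CPM in Gel/Laponite@IL-12, against 36.7, 46.9 and 45.4 CPM in IR-Con for Lbp and 48.3, 51.1 and 48.5 CPM in Gel/Laponite@IL-12, against 14.2, 14.7 and 13.8 CPM in IR-Con for Cd14. Casp4, the sensor of endotoxin inside the cell, and Il1rap, a chain of the interleukin 1 receptor, had log2 fold changes of 1.46 ± 0.18 and 1.01 ± 0.15. Tlr1 fell (-0.97 ± 0.11), and Tlr4 had 72.5, 78.5 and 72.6 CPM in Gel/Laponite@IL-12, against 70.2, 65.3 and 47.9 CPM in IR-Con and did not pass the test (adjusted p = 0.114). In the prostaglandin list 5 of 14 rose, or 3 without any one of the Gel/Laponite@IL-12 libraries or IR-Con replicate 2. Its rate-setting enzyme Ptgs2 had 250.2, 241 and 235 CPM in Gel/Laponite@IL-12, against 218, 204 and 174 CPM in IR-Con (log2 fold change 0.28 ± 0.09), and its call was among those lost.

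Complement genes rose as a group, 10 of 16 tested, with 0 falling and a median of 0.83. C3, on which all complement pathways converge, had 1341, 1341 and 1350 CPM in Gel/Laponite@IL-12, against 194, 186 and 206 CPM in IR-Con (log2 fold change 2.78 ± 0.08) and lies on GRCm38 chromosome 17, bases 57203970 to 57228136 of the minus strand. Its 6 libraries held 2906 to 21787 reads, and the gel libraries differed by under 10 CPM. C4b had 296, 296 and 285 CPM in Gel/Laponite@IL-12, against 94.2, 77.6 and 83.0 CPM in IR-Con (1.78 ± 0.09), with 65.4% of its windows unique. Cfb, which forms the alternative pathway convertase with C3, had 13.2, 13.5 and 13.7 CPM in Gel/Laponite@IL-12, against 0.668, 0.448 and 0.974 CPM in IR-Con. Since 79.5% of the Cfb exons overlap another gene on the same strand, part of its reads may belong there.

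Interferon-induced genes went the other way. Of 39 tested, 2 rose and 14 fell, with a median of -0.34. The number that fell depended on the libraries. It was 32 without IR-Con replicate 3, 9 without IR-Con replicate 1, 6 without IR-Con replicate 2, and 7, 8 or 8 without a Gel/Laponite@IL-12 library. Ifit3, which limits the replication of viruses, had 277, 274 and 288 CPM in Gel/Laponite@IL-12, against 594, 531 and 309 CPM in IR-Con (log2 fold change -0.77 ± 0.19). IR-Con replicate 3 lay closer to the gel libraries than to the other IR-Con libraries, and the call was lost without IR-Con replicate 2. Iigp1, a GTPase against intracellular parasites, had 112, 116 and 109 CPM in Gel/Laponite@IL-12, against 253, 208 and 124 CPM in IR-Con, and its call was lost without Gel/Laponite@IL-12 replicate 2 or 3 as well as without IR-Con replicate 2. Ddx60, a helicase that aids RNA sensing, had 99.8, 97.5 and 100.2 CPM in Gel/Laponite@IL-12, against 241, 182 and 138 CPM in IR-Con (log2 fold change -0.92 ± 0.16). Oasl2 had 344, 338 and 332 CPM in Gel/Laponite@IL-12, against 492, 469 and 326 CPM in IR-Con and did not pass the test (adjusted p = 0.0696). For Ifit3 only 48.8% of the windows are unique, and for its relative Ifit3b 55.0%, with a log2 fold change of -1.001 ± 0.20. The 2 risers were Irf1, which induces class I genes, with 79.8, 76.5 and 80.5 CPM in Gel/Laponite@IL-12, against 43.9, 54.7 and 44.4 CPM in IR-Con, and the GTPase gene Gbp5 (0.71 ± 0.14). In the list of class I antigen presentation 5 of 20 rose and 3 fell. The heavy chains H2-K1 and H2-D1 fell, with 59.2, 82.0 and 65.0 CPM in Gel/Laponite@IL-12, against 118, 132 and 117 CPM in IR-Con for H2-K1 and 33.7, 37.0 and 36.1 CPM in Gel/Laponite@IL-12, against 66.5, 69.3 and 72.6 CPM in IR-Con for H2-D1, and the immunoproteasome subunit Psmb8 rose (0.84 ± 0.17).

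Genes of the IL-12 receptor were barely measured. Il12rb1 had 2.96, 3.33 and 2.79 CPM in Gel/Laponite@IL-12, against 1.94, 1.79 and 3.13 CPM in IR-Con and did not pass the test (log2 fold change 0.41 ± 0.29, adjusted p = 0.307). Il12rb2, the signalling chain, had 4, 7 and 3 reads in Gel/Laponite@IL-12 and 14, 7 and 11 reads in IR-Con, and like Stat4 it did not pass the filter on low counts. Of 30 tested genes of the list of IL-12 family receptors and JAK/STAT signalling, 9 rose and 3 fell (median -0.02). Socs3, the feedback inhibitor of Il6 family receptors, had 77.0, 67.0 and 67.2 CPM in Gel/Laponite@IL-12, against 19.8, 12.6 and 25.2 CPM in IR-Con (log2 fold change 1.88 ± 0.19), and Osmr, the receptor chain for oncostatin M, had 440.1, 433 and 443 CPM in Gel/Laponite@IL-12, against 220.1, 216 and 188 CPM in IR-Con (1.08 ± 0.08). Jak3 rose (1.18 ± 0.19). Il11ra1 fell, with 41.6, 39.0 and 39.3 CPM in Gel/Laponite@IL-12, against 79.0, 83.0 and 92.1 CPM in IR-Con, although only 53.7% of its windows are unique. Jak1 had 269, 259 and 272 CPM in Gel/Laponite@IL-12, against 254, 241 and 210.3 CPM in IR-Con, and neither it nor Stat2 passed the test (adjusted p = 0.131 and 0.09).

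**Figure D2:**
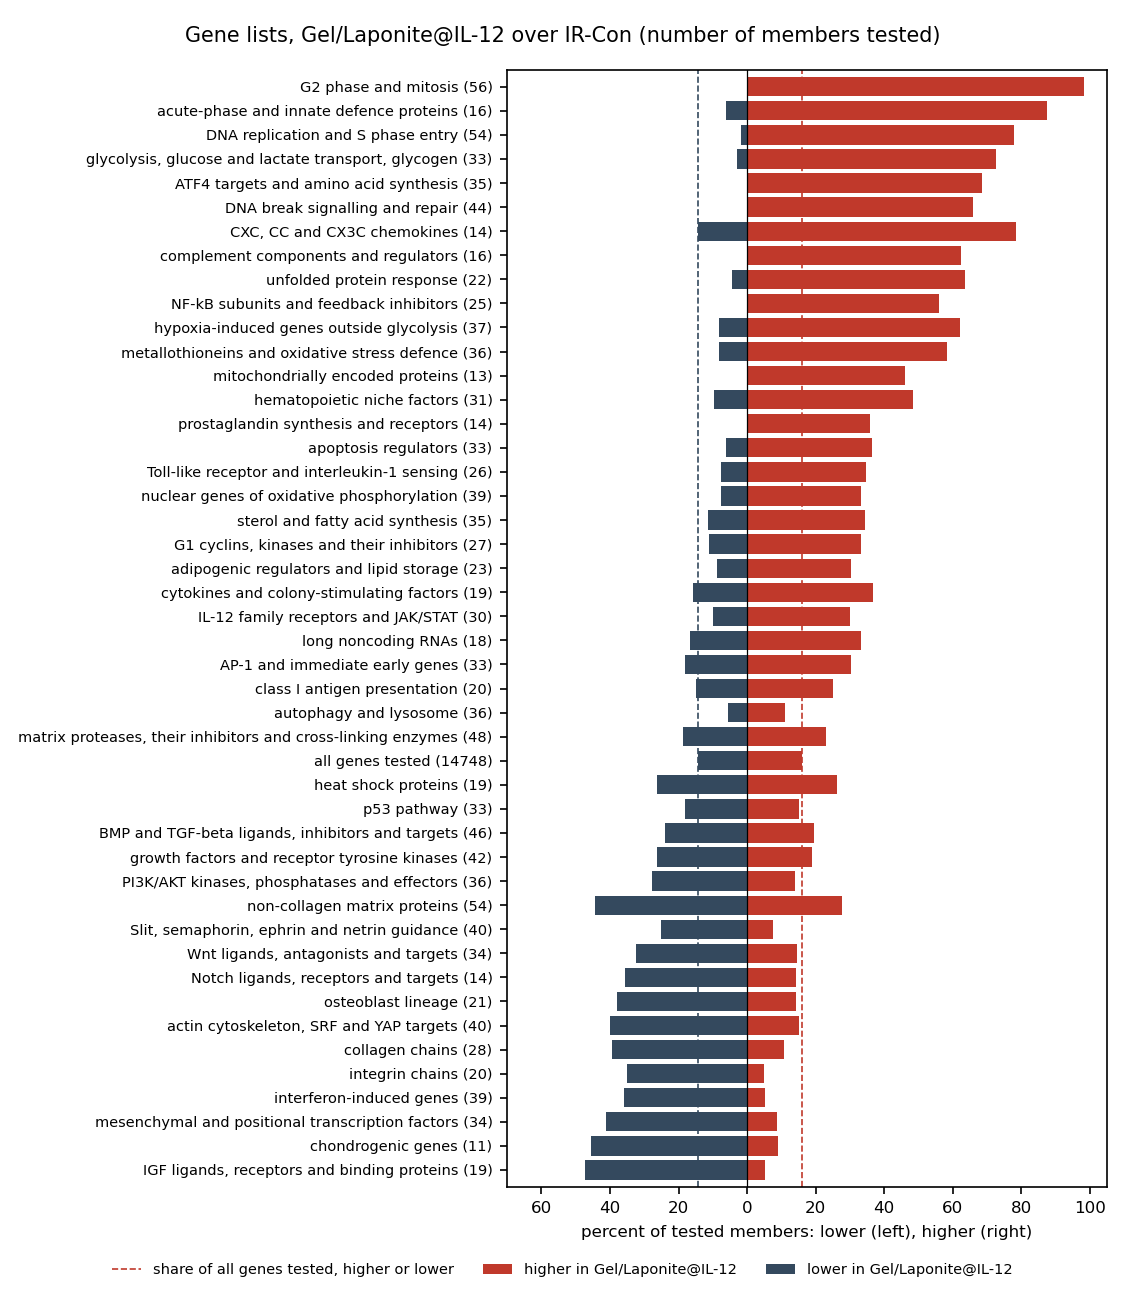
Share of the tested members of each gene list that were higher (red, right of 0) or lower (dark blue, left of 0) in Gel/Laponite@IL-12 than in IR-Con, in percent, with the number tested in brackets and dashed lines at the shares of all genes tested, 16.1% and 14.3%. The list of G2 phase and mitosis is at the top with 55 of 56 members higher, and the list of insulin-like growth factor genes is at the bottom with 9 of 19 lower.

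Most genes of glycolysis rose. Of 33 tested genes 24 were higher and 1 lower, with a median log2 fold change of 0.92, and 22 to 26 rose when any library was left out. Hypoxia-induced genes outside glycolysis showed 23 of 37 higher and 3 lower (median 0.39). The hypoxia list was written from genes known to be induced by low oxygen, and the glycolysis list from known genes of that pathway. Their motif shares are thus no test of these data. The factors that low oxygen stabilizes bind the letters ACGTG. These stood on either strand in 20 of 46 promoters of the glycolysis list (43.5%) and 18 of 34 of the hypoxia list (52.9%), against 21.2% for the genes tested and 16.6% of all promoters, where CACGTG counts once. The promoters of a pair of glycolytic enzymes and of Bnip3 are shown, at chrX:106186920-106186999 (Pgk1, plus strand), chr19:41911731-41911810 (Pgam1, plus strand) and chr7:138909567-138909646 (Bnip3, minus strand), with the letters in capitals.
Pgk1: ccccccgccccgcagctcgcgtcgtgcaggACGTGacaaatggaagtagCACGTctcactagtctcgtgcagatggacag
Pgam1: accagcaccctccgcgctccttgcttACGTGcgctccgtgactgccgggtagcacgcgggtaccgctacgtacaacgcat
Bnip3: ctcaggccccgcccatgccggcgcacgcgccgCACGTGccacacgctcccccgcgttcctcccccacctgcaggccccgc

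Pgk1, which makes the first ATP of glycolysis, had 1503, 1579 and 1593 CPM in Gel/Laponite@IL-12, against 636, 711 and 678 CPM in IR-Con (log2 fold change 1.21 ± 0.08), and Pgam1, the enzyme after it, had 682, 710.2 and 700.3 CPM in Gel/Laponite@IL-12, against 305, 321 and 324 CPM in IR-Con (1.14 ± 0.07). Both were chosen for their promoters after their values were seen, and 46.1% of the windows of Pgk1 are unique. Hk2, the inducible hexokinase that traps glucose, had 95, 92.3 and 94.6 CPM in Gel/Laponite@IL-12, against 39.6, 33.4 and 39.9 CPM in IR-Con (1.32 ± 0.09). Pfkl, a subunit of the committed step, had 364, 375 and 372 CPM in Gel/Laponite@IL-12, against 128, 145 and 198 CPM in IR-Con, and Pfkfb3, which makes the activator of that step, had 53.2, 48.5 and 51.1 CPM in Gel/Laponite@IL-12, against 17.4, 14.8 and 14.7 CPM in IR-Con (1.70 ± 0.11). Ldha, which turns pyruvate to lactate, had 1470, 1533 and 1488 CPM in Gel/Laponite@IL-12, against 647, 727 and 769.9 CPM in IR-Con (1.07 ± 0.08). Eno3, the muscle enolase, was the 1 member that fell, with 54.7, 57.5 and 57.7 CPM in Gel/Laponite@IL-12, against 70.0, 80.0 and 74.8 CPM in IR-Con. Outside glycolysis, Bnip3, a receptor for the removal of mitochondria, had 143, 148 and 152 CPM in Gel/Laponite@IL-12, against 70.1, 82.5 and 55.4 CPM in IR-Con, with 52.8% of its windows unique. P4ha2, a collagen prolyl hydroxylase, had 131, 130.3 and 130.1 CPM in Gel/Laponite@IL-12, against 44.4, 53.4 and 56.2 CPM in IR-Con (1.34 ± 0.10), and Ddit4, an inhibitor of mTOR signalling, had 98.95, 93.2 and 89.5 CPM in Gel/Laponite@IL-12, against 27.6, 30.0 and 49.7 CPM in IR-Con (1.39 ± 0.18). Egln3, an oxygen sensor that is itself induced by low oxygen, reached 5.47, 6.27 and 6.07 CPM in Gel/Laponite@IL-12, against 0.911, 1.73 and 2.85 CPM in IR-Con. Plod2, a collagen lysyl hydroxylase, fell (-0.44 ± 0.10).

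Stress pathways rose more mildly. In the list of ATF4 targets and amino acid synthesis 24 of 35 rose and 0 fell (median 0.37), or 14 and 15 without Gel/Laponite@IL-12 replicate 1 or 3. Shmt2 and Mthfd1l, mitochondrial enzymes of one-carbon metabolism, had means of 272 ± 1.60 CPM in Gel/Laponite@IL-12, against 138 ± 17.4 CPM in IR-Con (SD, n = 3 each) for Shmt2 and 132 ± 2.85 CPM in Gel/Laponite@IL-12, against 61.5 ± 5.30 CPM in IR-Con (SD, n = 3 each) for Mthfd1l. Slc7a11, the cystine importer, had a log2 fold change of 0.93 ± 0.10. Of 22 genes of the unfolded protein response 14 rose and 1 fell, led by Sdf2l1 (1.37 ± 0.17) and Manf (1.04 ± 0.08), proteins of the endoplasmic reticulum. Among their 19 promoters, 17 (89.5%) held the letters CCAAT on either strand, against 35.6% for the genes tested. In the list of metallothioneins and oxidative stress defence 21 of 36 rose and 3 fell, or 12 and 13 rose without Gel/Laponite@IL-12 replicate 2 or 3 and 5 fell without IR-Con replicate 1. Nqo1, a quinone reductase and target of NRF2, had 27.3, 27.6 and 28.6 CPM in Gel/Laponite@IL-12, against 9.17, 7.04 and 10.1 CPM in IR-Con (1.67 ± 0.14). Gsr, which regenerates glutathione, had 50.5, 51.7 and 49.7 CPM in Gel/Laponite@IL-12, against 17.5, 18.0 and 18.98 CPM in IR-Con, Mt1, a metal-binding protein, had 260.2, 272 and 261 CPM in Gel/Laponite@IL-12, against 102, 104 and 93.5 CPM in IR-Con, and the mitochondrial superoxide dismutase gene Sod2 had 140, 138 and 131 CPM in Gel/Laponite@IL-12, against 53.2, 55.9 and 50.8 CPM in IR-Con. Txnip, an inhibitor of glucose uptake and of thioredoxin, fell, with 491, 503 and 504 CPM in Gel/Laponite@IL-12, against 852, 878 and 806 CPM in IR-Con (-0.76 ± 0.07). Heat shock genes were even, with 5 of 19 higher and 5 lower. Hspa1b was lower (-0.34 ± 0.10), but lost its call without any one of the Gel/Laponite@IL-12 libraries, and 37.7% of its windows are unique. The lower count was 3 without IR-Con replicate 1, 2 without Gel/Laponite@IL-12 replicate 1 and 1 without replicate 2 or 3, and the higher count was 8 without IR-Con replicate 3.

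Of 35 genes of sterol and fatty acid synthesis 12 rose and 4 fell, or 7 rose without any one of the Gel/Laponite@IL-12 libraries. For oxidative phosphorylation, 13 of 39 nuclear genes rose and 3 fell, and the number that rose was 23 without IR-Con replicate 3 and 7 or 8 without a Gel/Laponite@IL-12 library. Of 13 mitochondrially encoded genes 6 rose and 0 fell. The share of counts in mitochondrial genes was lowest in IR-Con replicate 3, as given above, and its part in these calls was not tested.

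Genes of cell division were higher almost without exception. In the list of G2 phase and mitosis 55 of 56 tested genes rose, 0 fell and the median log2 fold change was 1.00, which is 2-fold, and 54 to 56 rose when any library was left out. In the list of DNA replication and S phase entry 42 of 54 rose and 1 fell (median 0.67). Both lists were written from known genes, so their motif shares are no test of these data. Promoters of mitotic genes are known for a pair of elements, the CCAAT box and the cell cycle homology region (CHR), with the letters TTTGAA. CHR letters stood in 19 of 51 promoters of the mitosis list (37.3%) against 10.8% for the genes tested, and CCAAT in 36 of 51 (70.6%) against 35.6%. Both occur in the promoters of Cdc20, Ube2c and Kif11, at chr4:118437344-118437423 (Cdc20, minus strand), chr2:164769829-164769908 (Ube2c, plus strand) and chr19:37376302-37376381 (Kif11, plus strand), in capitals. ATTGG and TTCAAA are the same letters on the other strand.
Cdc20: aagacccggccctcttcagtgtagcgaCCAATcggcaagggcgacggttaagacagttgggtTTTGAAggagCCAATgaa
Ube2c: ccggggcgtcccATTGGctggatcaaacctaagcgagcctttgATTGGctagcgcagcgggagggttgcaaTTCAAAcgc
Kif11: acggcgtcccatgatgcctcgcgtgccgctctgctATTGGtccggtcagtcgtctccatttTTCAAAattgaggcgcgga
E2F letters, TTTNNCGC, stood in 12 of 54 promoters of the replication list (22.2%) against 6.76% for the genes tested. A pair of subunits of the helicase that opens replication origins shows them, at chr8:75109329-75109408 (Mcm5, plus strand) and chr1:128359736-128359835 (Mcm6, minus strand), again in capitals, where copies on both strands overlap.
Mcm5: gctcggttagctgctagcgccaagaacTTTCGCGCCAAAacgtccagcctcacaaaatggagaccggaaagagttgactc
Mcm6: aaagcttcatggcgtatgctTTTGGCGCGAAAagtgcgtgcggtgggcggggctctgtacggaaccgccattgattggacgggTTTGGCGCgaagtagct

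Cdc20, which activates the complex that ends metaphase, had 66.3, 65.1 and 68.7 CPM in Gel/Laponite@IL-12, against 20.9, 23.8 and 30.5 CPM in IR-Con (log2 fold change 1.41 ± 0.13). Ube2c, the ubiquitin carrier of the same complex, had 63.2, 58.3 and 67.9 CPM in Gel/Laponite@IL-12, against 25.8, 26.6 and 31.6 CPM in IR-Con, and Kif11, the motor that parts the spindle poles, had 76.0, 77.1 and 76.4 CPM in Gel/Laponite@IL-12, against 45.4, 49.1 and 37.1 CPM in IR-Con. Kif20a, a kinesin of cytokinesis, had 92.6, 94.3 and 94.4 CPM in Gel/Laponite@IL-12, against 31.5, 35.2 and 31.2 CPM in IR-Con (1.52 ± 0.08). Plk1, a master kinase of mitosis, had 57.3, 55.1 and 55.6 CPM in Gel/Laponite@IL-12, against 18.0, 22.9 and 23.9 CPM in IR-Con, and Bub1b, of the spindle checkpoint, and Spc24, of the kinetochore, had log2 fold changes of 1.40 ± 0.11 and 1.53 ± 0.18. The 1 gene of the list that did not pass was the condensin gene Smc4, with 225, 221 and 206 CPM in Gel/Laponite@IL-12, against 205, 193 and 147 CPM in IR-Con (adjusted p = 0.118). Its 3 gel libraries were also above those of IR-Con, which held for 24.7% of all genes tested. In the replication list, Mcm5 had 106, 101.4 and 102 CPM in Gel/Laponite@IL-12, against 40.5, 39.6 and 48.3 CPM in IR-Con (1.26 ± 0.09) and Mcm6 had 86.9, 83.0 and 89.2 CPM in Gel/Laponite@IL-12, against 63.1, 56.5 and 49.9 CPM in IR-Con. Gmnn, which blocks a second licensing of origins, and Ccne1, the cyclin of S phase entry, had means of 15.9 ± 1.07 CPM in Gel/Laponite@IL-12, against 5.61 ± 1.07 CPM in IR-Con (SD, n = 3 each) for Gmnn and 13.5 ± 1.89 CPM in Gel/Laponite@IL-12, against 5.28 ± 1.52 CPM in IR-Con (SD, n = 3 each) for Ccne1. Uhrf1, which carries DNA methylation through replication, had a log2 fold change of 1.27 ± 0.12. Rpa1, which coats single-stranded DNA, was the member that fell (-0.24 ± 0.07), and its call was lost without any one of the Gel/Laponite@IL-12 libraries or IR-Con replicate 2.

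**Figure D3:**
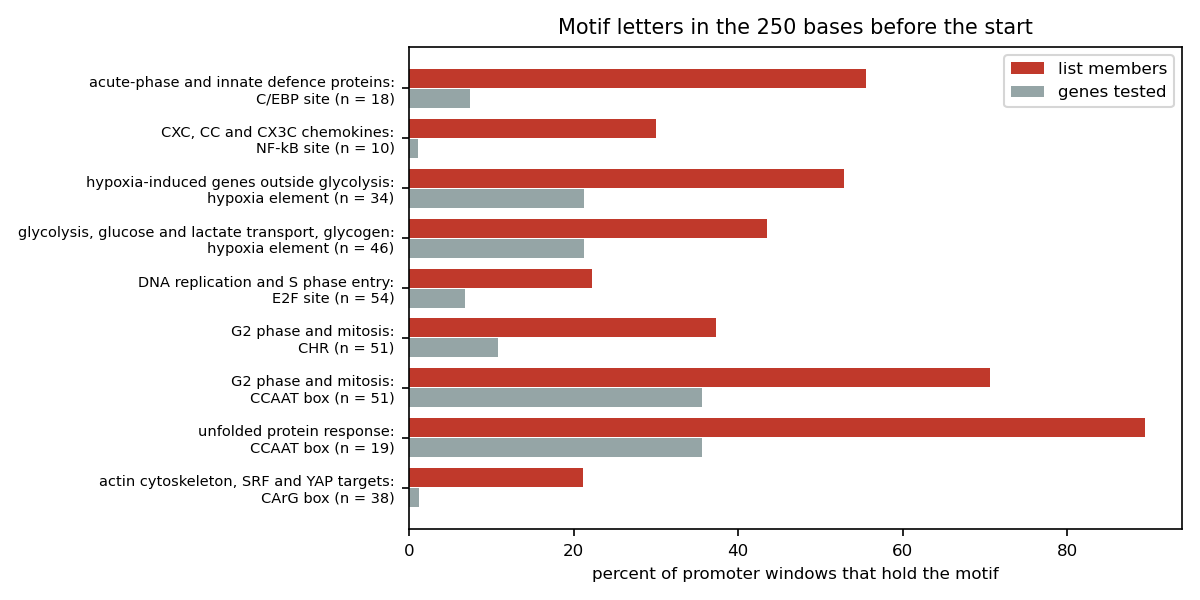
Percent of promoter windows, the 250 bases before the start, that hold the letters of a motif on either strand, for members of 8 gene lists (red) above the genes tested (grey), with the number of promoters of each list. The largest shares were 89.5% for CCAAT in the unfolded protein response and 70.6% for CCAAT in the mitosis list, both against 35.6%, and the NF-kB letters stood at 30.0% of chemokine promoters against 1.11%. The lists were written from general knowledge, so these shares are no test of the data. Not drawn are the promoters of all genes called higher. They held CCAAT in 38.2%, the hypoxia element in 23.5%, CHR in 12.1%, E2F in 9.16%, C/EBP in 8.5% and NF-kB letters in 1.83%.

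The Cdkn1 inhibitors of cyclin-dependent kinases fell and another rose. Of 27 genes of G1 control 9 rose and 3 fell. The number that rose was 14 without IR-Con replicate 3, or 6 without Gel/Laponite@IL-12 replicate 2 or 3. Cdkn1a, the p21 gene and a main target of p53 after radiation, had 24.5, 29.0 and 29.4 CPM in Gel/Laponite@IL-12, against 48.3, 50.5 and 62.5 CPM in IR-Con (log2 fold change -0.96 ± 0.12), and Cdkn1b, the p27 gene, had 223, 224 and 208 CPM in Gel/Laponite@IL-12, against 309, 287 and 281 CPM in IR-Con (-0.42 ± 0.08). Cdkn1c, the p57 gene, had 2.50, 4.41 and 3.78 CPM in Gel/Laponite@IL-12, against 6.38, 6.08 and 5.77 CPM in IR-Con and lost its call without Gel/Laponite@IL-12 replicate 1 or 3 as well as without IR-Con replicate 1 or 2. Cdkn2d, the p19 gene, rose, with 11.9, 15.5 and 14.8 CPM in Gel/Laponite@IL-12, against 7.22, 9.66 and 9.32 CPM in IR-Con, and lost its call without Gel/Laponite@IL-12 replicate 2 or 3. Myc, a driver of cell growth, had 138, 134 and 128 CPM in Gel/Laponite@IL-12, against 90.2, 82.7 and 102 CPM in IR-Con (0.54 ± 0.09). Other p53 targets did not follow Cdkn1a as a group. Of 33 tested, 5 rose and 6 fell (median -0.02), near the shares of all genes tested, 16.1% and 14.3%. Fas, a death receptor, had 32.9, 35.2 and 34.0 CPM in Gel/Laponite@IL-12, against 14.6, 16 and 10.8 CPM in IR-Con (1.29 ± 0.14), Eda2r had 6.00, 5.56 and 6.26 CPM in Gel/Laponite@IL-12, against 16.6, 14.7 and 12.8 CPM in IR-Con (-1.31 ± 0.16), and Mdm2, the ligase of p53, had 59.1, 64.3 and 62.7 CPM in Gel/Laponite@IL-12, against 75.5, 72.1 and 66.5 CPM in IR-Con and did not pass the test (adjusted p = 0.0873). Genes of DNA break signalling and repair rose in 29 of 44 cases and fell in 0 (median 0.47), or rose in 19 cases without Gel/Laponite@IL-12 replicate 1. Exo1, a nuclease that trims DNA ends, had a log2 fold change of 1.098 ± 0.22. The kinase Atm had 86.2, 80.8 and 86.0 CPM in Gel/Laponite@IL-12, against 90.8, 66.4 and 66.4 CPM in IR-Con and did not pass the test. Of the apoptosis list 12 of 33 rose and 2 fell, or 7 rose without Gel/Laponite@IL-12 replicate 2.

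The study designed PCR primers for a set of cell cycle genes. Of these 16 genes 13 rose here, Cdk6 and Cdc25c among them, and 0 fell, or 8 rose without Gel/Laponite@IL-12 replicate 3. The study reported higher expression of Cdc6, Cdc25a, Cdc25c, Cdk2, Cdk6 and Chek1 with the complete gel, and more CDC25A and CDC25C protein. Cdc6, which loads the helicase, had 17.6, 15.8 and 17.6 CPM in Gel/Laponite@IL-12, against 8.44, 7.68 and 7.16 CPM in IR-Con (1.13 ± 0.14), and the checkpoint kinase gene Chek1 had 21.2, 19.9 and 20.1 CPM in Gel/Laponite@IL-12, against 12.5, 10.2 and 9.46 CPM in IR-Con (0.92 ± 0.14). Cdk2 and Cdc25a had smaller values, with 46.6, 51.3 and 49.1 CPM in Gel/Laponite@IL-12, against 41.6, 41.0 and 41.7 CPM in IR-Con for Cdk2 and 40.9, 43.2 and 40.8 CPM in Gel/Laponite@IL-12, against 37.8, 32.4 and 33.8 CPM in IR-Con for Cdc25a, and neither passed the test (adjusted p = 0.0509 and 0.0571), nor did Tgfb1 (log2 fold change 0.16 ± 0.11). The other primers of the study were for osteogenic and hematopoietic genes. Of these 15 genes 11 were tested, 5 rose and 1 fell, with a median of 0.015. Cxcl12, Slit2 and Alpl were among those that rose and Col1a1 was the one that fell. Without IR-Con replicate 2 or any one of the Gel/Laponite@IL-12 libraries 3 rose, and without IR-Con replicate 3, 2 fell.

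Genes of the insulin-like growth factor axis fell more often than they rose. Of 19 tested, 9 fell and 1 rose (median -0.26). Igfbp5, which encodes the binding protein most abundant in bone, lies on GRCm38 chromosome 1, bases 72857932 to 72874884 of the minus strand and had 0.593, 1.60 and 0.868 CPM in Gel/Laponite@IL-12, against 51.5, 45.8 and 50.6 CPM in IR-Con (log2 fold change -5.58 ± 0.22). Igf1, the growth factor, had 27.6, 28.4 and 26.5 CPM in Gel/Laponite@IL-12, against 127, 112 and 95.3 CPM in IR-Con (-2.02 ± 0.11). Igf2r, which clears Igf2, had 281, 265 and 294 CPM in Gel/Laponite@IL-12, against 646, 535 and 671 CPM in IR-Con (-1.14 ± 0.10), and the carriers Igfbp2 and Igfbp3 had log2 fold changes of -2.15 ± 0.32 and -0.90 ± 0.12. In these 5 genes no gel library reached the lowest IR-Con library, which held for 21.9% of all genes tested. Igfbp7 rose, with 344, 358 and 325 CPM in Gel/Laponite@IL-12, against 183, 229.8 and 237 CPM in IR-Con, and Igfbp4, an inhibitory carrier, had 572, 543 and 567 CPM in Gel/Laponite@IL-12, against 448, 512 and 599 CPM in IR-Con and did not pass the test.

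Matrix genes moved in both directions, with more falls than rises. Among 54 matrix proteins other than collagens 15 rose and 24 fell (median -0.26). The deepest falls were in secreted proteins. Aspn, a leucine-rich proteoglycan that binds collagen and TGF-beta, had 1.98, 1.73 and 2.54 CPM in Gel/Laponite@IL-12, against 38.2, 34.4 and 23.4 CPM in IR-Con (-3.94 ± 0.23), and Omd, its neighbour on chromosome 13 and a protein of bone matrix, had 12.3, 10.9 and 10.8 CPM in Gel/Laponite@IL-12, against 67.2, 69.7 and 44.1 CPM in IR-Con (-2.41 ± 0.17). Edil3, an integrin ligand with an RGD motif, had 5.14, 2.81 and 3.60 CPM in Gel/Laponite@IL-12, against 43.5, 43.8 and 39.7 CPM in IR-Con (-3.46 ± 0.18). Smoc2, a calcium-binding matricellular protein, fell to 38.5, 39.7 and 39.9 CPM in Gel/Laponite@IL-12, against 230.4, 263 and 237 CPM in IR-Con (-2.63 ± 0.08), and Cilp, of cartilage, had a log2 fold change of -3.30 ± 0.16. The thrombospondins Thbs1 and Thbs2 were among the 10 most abundant genes of the 6 libraries and fell to 3285, 3276 and 3258 CPM in Gel/Laponite@IL-12, against 6459, 6192 and 5642 CPM in IR-Con for Thbs1 and 6976, 6901 and 7099 CPM in Gel/Laponite@IL-12, against 12770, 12700 and 12310 CPM in IR-Con for Thbs2. Members that rose included proteins of hyaluronan-rich matrix and of basement membranes. Has2, the main hyaluronan synthase, had 14.6, 14.9 and 13.4 CPM in Gel/Laponite@IL-12, against 2.91, 1.41 and 2.50 CPM in IR-Con (2.65 ± 0.23), Vcan, a proteoglycan that binds hyaluronan, had 349, 338 and 343 CPM in Gel/Laponite@IL-12, against 100.6, 80.4 and 68.3 CPM in IR-Con (2.04 ± 0.12), Tnc had 317, 316 and 334 CPM in Gel/Laponite@IL-12, against 145, 126 and 158 CPM in IR-Con, and Nid1, of basement membranes, had 381, 366 and 377 CPM in Gel/Laponite@IL-12, against 152, 135 and 145 CPM in IR-Con. Spp1, the osteopontin gene, had 1170, 1217 and 1192 CPM in Gel/Laponite@IL-12, against 201, 227 and 135 CPM in IR-Con (2.66 ± 0.16). Fibronectin, encoded by Fn1, had 12100, 11670 and 12100 CPM in Gel/Laponite@IL-12, against 14240, 11850 and 14340 CPM in IR-Con and did not pass the test.

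Of 28 collagen chains 3 rose and 11 fell. Both chains of type I collagen fell, with 4251, 4113 and 4172 CPM in Gel/Laponite@IL-12, against 5637, 6625 and 9922 CPM in IR-Con for Col1a1 and 7864, 7883 and 7925 CPM in Gel/Laponite@IL-12, against 10630, 11770 and 15480 CPM in IR-Con for Col1a2. In both, IR-Con replicate 3 was the highest library. Col3a1, which rose by 0.39 ± 0.11, lost its call without any one of the Gel/Laponite@IL-12 libraries or IR-Con replicate 2, and with any of these left out no collagen chain was called higher, whereas 8 were without IR-Con replicate 3. Col20a1 had the lowest log2 fold change of the chains, -1.52 ± 0.17. Lox, which cross-links collagen and was among the 10 most abundant genes, had 5716, 5756 and 5683 CPM in Gel/Laponite@IL-12, against 4907, 4938 and 4936 CPM in IR-Con and a log2 fold change of 0.21 ± 0.07, and its call was lost without any one of the Gel/Laponite@IL-12 libraries. Of 48 matrix proteases, inhibitors and cross-linking enzymes 11 rose and 9 fell. Of 20 integrin chains 7 fell and 1 rose. Those that fell include receptors for collagen, laminin and RGD ligands. Itga10 had 1.98, 2.56 and 1.98 CPM in Gel/Laponite@IL-12, against 14.6, 12.9 and 12.4 CPM in IR-Con (-2.61 ± 0.19), with 69.4% of its windows unique, and Itga7 had 9.03, 12.8 and 10.2 CPM in Gel/Laponite@IL-12, against 29.9, 33.3 and 33.2 CPM in IR-Con (-1.59 ± 0.14). Itga11 had a log2 fold change of -0.58 ± 0.09. Itga8, which binds RGD ligands, had 2.37, 2.43 and 2.60 CPM in Gel/Laponite@IL-12, against 9.96, 9.92 and 7.79 CPM in IR-Con. Itgb1, the shared beta chain, had 1082, 1111 and 1122 CPM in Gel/Laponite@IL-12, against 1402, 1356 and 1159 CPM in IR-Con and did not pass the test (adjusted p = 0.0534).

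Lineage genes of bone and cartilage were lower on balance. Of 21 osteoblast genes 3 rose and 8 fell (median -0.31), or 5 fell without any one of the Gel/Laponite@IL-12 libraries, and of 11 chondrogenic genes 1 rose and 5 fell. The bone regulator Runx2 had 65.6, 66.3 and 68.3 CPM in Gel/Laponite@IL-12, against 79.4, 69.8 and 63.4 CPM in IR-Con and did not pass the test. Alpl, the alkaline phosphatase of mineralizing cells, had 11.2, 11.4 and 12.6 CPM in Gel/Laponite@IL-12, against 7.89, 5.89 and 9.73 CPM in IR-Con (log2 fold change 0.58 ± 0.19) and lost its call without IR-Con replicate 1 or 2 or any one of the Gel/Laponite@IL-12 libraries. Among 23 adipogenic genes 7 rose and 2 fell. Cebpd, an early regulator of fat cells that also serves acute-phase genes, had 136, 142 and 144 CPM in Gel/Laponite@IL-12, against 14.3, 17.1 and 33.6 CPM in IR-Con (2.71 ± 0.28), and Fabp4, a fatty acid carrier, had 13.4, 10.9 and 11.2 CPM in Gel/Laponite@IL-12, against 1.64, 3.71 and 1.74 CPM in IR-Con (2.32 ± 0.28).

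In BMP, TGF-beta, Wnt and Notch signalling single ligands, receptors and antagonists differed in both directions. Of all genes tested 16.1% were higher and 14.3% lower, and the share that rose was near this background in each of these lists. Of 46 genes of BMP and TGF-beta 9 rose and 11 fell, or 5 and 6 without any one of the Gel/Laponite@IL-12 libraries, and 14 rose without IR-Con replicate 3. The BMP antagonist Grem1 rose, with 1540, 1530 and 1502 CPM in Gel/Laponite@IL-12, against 848, 720.5 and 619 CPM in IR-Con (log2 fold change 1.06 ± 0.11). Ltbp2, of the family that stores latent TGF-beta, had 542, 526 and 541 CPM in Gel/Laponite@IL-12, against 209, 194 and 223 CPM in IR-Con. Tgfbr2, the receptor that binds TGF-beta first, had 600.2, 584 and 600.2 CPM in Gel/Laponite@IL-12, against 1440, 1460 and 1494 CPM in IR-Con (-1.30 ± 0.07). Among the Id genes, which BMP induces, Id4 fell (-1.86 ± 0.27), while Id2 had 20.3, 18.7 and 16.9 CPM in Gel/Laponite@IL-12, against 20.9, 26.0 and 22.04 CPM in IR-Con and Id3 had 73.8, 76.0 and 74.1 CPM in Gel/Laponite@IL-12, against 58.2, 68.1 and 92.0 CPM in IR-Con, and neither passed the test. Of 34 Wnt genes 5 rose and 11 fell. Dkk2, a Wnt antagonist, had 40.2, 36.6 and 39.4 CPM in Gel/Laponite@IL-12, against 125, 119 and 112 CPM in IR-Con (-1.62 ± 0.08), Sfrp2, another, had 8.83, 10.3 and 10.3 CPM in Gel/Laponite@IL-12, against 18.8, 25.02 and 28.2 CPM in IR-Con, and Axin2, a feedback target, had 8.37, 7.93 and 7.81 CPM in Gel/Laponite@IL-12, against 13.8, 13.8 and 20.7 CPM in IR-Con (-1.0 ± 0.18). Rspo2, which amplifies Wnt signals, rose, with 49.0, 48.8 and 52.5 CPM in Gel/Laponite@IL-12, against 28.7, 29.2 and 28.7 CPM in IR-Con. The number of Wnt genes that rose was 2 or 3 without IR-Con replicate 2 or any one of the Gel/Laponite@IL-12 libraries. Among 14 Notch genes 2 rose and 5 fell, with the ligand Dll1 at 2.34 ± 0.197 CPM in Gel/Laponite@IL-12, against 6.34 ± 1.99 CPM in IR-Con (SD, n = 3 each) and the receptor Notch2 at 178 ± 3.82 CPM in Gel/Laponite@IL-12, against 242 ± 18.4 CPM in IR-Con (SD, n = 3 each).

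Factors that act on blood cells or on other cells of the niche rose more often than they fell, 15 of 31 against 3, and 13 did not pass the test. Besides Cxcl12, Il6 and Lif, those that rose included Hgf, the ligand of Met, with 107, 104.6 and 94.8 CPM in Gel/Laponite@IL-12, against 36.6, 30.4 and 25.2 CPM in IR-Con (log2 fold change 1.73 ± 0.12), and Fgf7, a growth factor of epithelia and thymus, with 185, 197 and 189.7 CPM in Gel/Laponite@IL-12, against 83.9, 86.9 and 67.6 CPM in IR-Con (1.26 ± 0.10). Kitl, the stem cell factor gene, and Thpo, both of the cytokine list, did not pass edgeR's test (adjusted p = 0.502 and 0.108). Kitl had a mean of 74.2 CPM in Gel/Laponite@IL-12, against 79.2 CPM in IR-Con. Thpo had a mean of 2.30 CPM in Gel/Laponite@IL-12, against 3.46 CPM in IR-Con. Slit2 and Slit3, secreted guidance proteins that bind Robo receptors, had 218, 207 and 204 CPM in Gel/Laponite@IL-12, against 106, 94.0 and 90.3 CPM in IR-Con for Slit2 and 45.0, 45.1 and 48.8 CPM in Gel/Laponite@IL-12, against 16.3, 11.5 and 17.2 CPM in IR-Con for Slit3 (1.11 ± 0.08 and 1.62 ± 0.14). Other guidance genes fell, so that of 40 tested 3 rose and 10 fell. Sema3a, a repellent of axons and vessels, had 223, 222 and 221 CPM in Gel/Laponite@IL-12, against 570.5, 526 and 453 CPM in IR-Con (-1.22 ± 0.09). Of 42 growth factors and receptor tyrosine kinases 8 rose and 11 fell, or 7 fell without Gel/Laponite@IL-12 replicate 3, with Gas6, the ligand of the TAM receptors, at 35.0 ± 2.78 CPM in Gel/Laponite@IL-12, against 58.9 ± 10.8 CPM in IR-Con (SD, n = 3 each). Stc1, a hormone that limits calcium, was among the 15 highest called genes under the limits on overlap and mean level given above. It had 54.0, 53.1 and 55.5 CPM in Gel/Laponite@IL-12, against 7.77, 5.76 and 6.05 CPM in IR-Con (3.05 ± 0.13).

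Cytoskeletal targets of SRF and YAP fell on balance, 16 of 40 against 6 that rose, or 10 and 8 without Gel/Laponite@IL-12 replicate 2 or 3. SRF binds the CArG box, which was found in 8 of 38 promoters of the list (21.1%) against 1.21% for the genes tested. The list was written as one of SRF and YAP targets, so this share is no test of these data. Genes called lower held the box in 1.66% of promoters and those called higher in 1.5%. The promoters of Fhl2 and of Srf itself carry it, at chr1:43196782-43196871 (Fhl2, minus strand) and chr17:46556193-46556272 (Srf, minus strand), in capitals.
Fhl2: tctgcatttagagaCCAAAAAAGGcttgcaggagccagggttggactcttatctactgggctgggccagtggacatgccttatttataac
Srf: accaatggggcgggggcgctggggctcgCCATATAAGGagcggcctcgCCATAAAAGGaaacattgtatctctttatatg
Fhl2, a cofactor of SRF, had 40.4, 38.8 and 38.7 CPM in Gel/Laponite@IL-12, against 71.3, 96.0 and 68.2 CPM in IR-Con (-1.0 ± 0.12), and Zyx, which encodes the focal adhesion protein zyxin, had 921, 866 and 927 CPM in Gel/Laponite@IL-12, against 1586, 1922 and 2036 CPM in IR-Con (-1.03 ± 0.10). Srf, named for its promoter after its values were seen, had 58.2, 60.0 and 60.4 CPM in Gel/Laponite@IL-12, against 61.3, 84.7 and 109.9 CPM in IR-Con (log2 fold change -0.52 ± 0.17), and its call was lost without IR-Con replicate 2 or 3 or any one of the Gel/Laponite@IL-12 libraries. The smooth muscle genes of the list rose instead, with 53.5, 56.0 and 50.9 CPM in Gel/Laponite@IL-12, against 29.6, 22.3 and 22.7 CPM in IR-Con for Cnn1 and 1346, 1374 and 1420 CPM in Gel/Laponite@IL-12, against 954, 1093 and 941 CPM in IR-Con for Acta2 (1.102 ± 0.12 and 0.47 ± 0.08), and Actb had 2074, 2076 and 2185 CPM in Gel/Laponite@IL-12, against 2110, 2339 and 2242 CPM in IR-Con and did not pass the test. Of 33 immediate early genes 10 rose and 6 fell, or 3 fell without any one of the Gel/Laponite@IL-12 libraries. Ier3, a survival gene induced by NF-kB, had 208, 203 and 200.4 CPM in Gel/Laponite@IL-12, against 33.8, 49.0 and 46.7 CPM in IR-Con (2.24 ± 0.13), and Junb had 186, 171 and 183 CPM in Gel/Laponite@IL-12, against 51.1, 54.2 and 96.3 CPM in IR-Con (1.42 ± 0.21). Egr1 and Spry2, both induced by ERK signalling, fell, with 154, 141 and 152 CPM in Gel/Laponite@IL-12, against 275, 298 and 291 CPM in IR-Con for Egr1 and 63.6, 61.4 and 64.2 CPM in Gel/Laponite@IL-12, against 166, 175 and 176 CPM in IR-Con for Spry2. Of 34 mesenchymal and positional transcription factors 3 rose and 14 fell (median -0.30). Hoxc8 had 49.3, 50.3 and 48.0 CPM in Gel/Laponite@IL-12, against 87.6, 80.3 and 76.8 CPM in IR-Con. Hmga1, an architectural chromatin protein, rose to 245, 237 and 245 CPM in Gel/Laponite@IL-12, against 47.4, 63.5 and 99.4 CPM in IR-Con (1.79 ± 0.22), with 45.0% of its windows unique.

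The study singled out the PI3K/AKT pathway from enrichment among its differing genes, AKT phosphorylation and the effect of an inhibitor. It also reported higher Akt1 mRNA with IL-12-loaded gels. Transcript counts do not measure phosphorylation or the activity of the pathway. Genes of this pathway differed in both directions. At least 2-fold higher were 2 of them, and at least 2-fold lower was 1. Of 36 tested 5 rose and 10 fell (median -0.12), or 4, 6 and 5 fell without Gel/Laponite@IL-12 replicate 1, 2 or 3. Akt1 had 157, 148 and 159 CPM in Gel/Laponite@IL-12, against 140.4, 150.1 and 179 CPM in IR-Con, and its groups overlapped. Gsk3b, a kinase that AKT inhibits, had 90.8, 88.9 and 89.9 CPM in Gel/Laponite@IL-12, against 168, 142 and 148 CPM in IR-Con (-0.77 ± 0.08), and Deptor, an inhibitor of mTOR, had a log2 fold change of -0.74 ± 0.10. Eif4ebp1, a brake on translation, rose (0.81 ± 0.17). Of 18 long noncoding RNAs 6 rose and 3 fell, or 3 rose without Gel/Laponite@IL-12 replicate 1. Malat1, retained in the nucleus, had 973, 1359 and 786 CPM in Gel/Laponite@IL-12, against 5265, 3566 and 5463 CPM in IR-Con (-2.20 ± 0.22), while Neat1, its neighbour on chromosome 19, had 780, 759.6 and 809 CPM in Gel/Laponite@IL-12, against 721, 647 and 799 CPM in IR-Con and did not pass the test. Of 36 genes of lysosomes and autophagy 4 rose and 2 fell. Without IR-Con replicate 3, 7 rose and 6 fell, without IR-Con replicate 1, 4 fell, and without any one of the Gel/Laponite@IL-12 libraries 2 rose and 0 fell.

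Other genes at the low end had less defined roles in stromal cells. Tnfrsf19, a receptor of the TNF family, had 3.49, 2.69 and 3.29 CPM in Gel/Laponite@IL-12, against 20.2, 20.9 and 20.9 CPM in IR-Con (-2.71 ± 0.15), Daam2, a formin of Wnt signalling, had 9.69, 8.25 and 8.49 CPM in Gel/Laponite@IL-12, against 46.9, 52.1 and 53.5 CPM in IR-Con (-2.53 ± 0.11), Reps2 had a log2 fold change of -2.62 ± 0.18, and Adamtsl1, a secreted matrix protein, had 8.70, 9.98 and 9.73 CPM in Gel/Laponite@IL-12, against 59.0, 46.2 and 65.8 CPM in IR-Con.

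Smaller counts shifted with single libraries too. Without IR-Con replicate 3, 7 guidance genes and 3 insulin-like growth factor genes were higher, and 6 apoptosis genes, 6 JAK/STAT genes and 4 sensing genes were lower. Without any one of the Gel/Laponite@IL-12 libraries 1 gene of the sterol list was lower, 0 Notch genes were higher, and no gene of the unfolded protein response was lower. The p53 list had 3 higher genes without Gel/Laponite@IL-12 replicate 2 or 3, and the PI3K/AKT list had 3 without replicate 1 or 3 or IR-Con replicate 2. Lists with 0 or 1 lower gene gained at most 2 when a library was left out. Genes named above as not passing the test did so when a library was left out in several cases. Without IR-Con replicate 1 these were Tlr4, Jak1, Smc4, Atm and Cdc25a. Without IR-Con replicate 2 this was Fn1. Without IR-Con replicate 3 they were Oasl2, Stat2, Mdm2, Cdk2, Cdc25a, Igfbp4, Itgb1, Neat1 and Id3.

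Set against the other gels, the complete gel differed far less than it did from IR-Con. These comparisons share the 3 libraries of the complete gel with each other and with the one above. In one fit of the 12 gel libraries with 15188 genes tested, Gel/Laponite@IL-12 differed from Gel in 470 genes (3.09%), 250 higher (1.65%) and 220 lower (1.45%). It differed from Gel/IL-12 in 659 (4.34%), 327 higher (2.15%) and 332 lower (2.19%), and from Gel/Laponite in 263 (1.73%), 117 higher (0.77%) and 146 lower (0.961%). The median size of these differences was 0.20, 0.18 and 0.14 on the log2 scale, and 12, 11 and 4 genes differed by at least 2-fold. The counts depended on the libraries in the fit. With the IR-Con libraries added they were 49, 47 and 1, and for Gel/Laponite the count was 158 with the 6 libraries alone, 121 and 157 without Gel/Laponite@IL-12 replicate 1 or 3, and 140 without Gel/Laponite replicate 1.

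C3 and Steap4 were higher in the complete gel than in each of the others. C3 had 1341, 1341 and 1350 CPM in Gel/Laponite@IL-12, against 964, 978 and 989.5 CPM in Gel, 1083, 1078 and 1059 CPM in Gel/IL-12 and 1164, 1160 and 1168 CPM in Gel/Laponite. The complete gel was higher than Gel by 0.45 ± 0.02, than Gel/IL-12 by 0.32 ± 0.02 and than Gel/Laponite by 0.21 ± 0.02 on the log2 scale. Steap4 had 129, 129.8 and 128 CPM in Gel/Laponite@IL-12, against 71.9, 83.3 and 69.8 CPM in Gel, 83.8, 81.6 and 80.9 CPM in Gel/IL-12 and 92.7, 103 and 97.2 CPM in Gel/Laponite, with log2 differences of 0.77 ± 0.04 from Gel, 0.65 ± 0.04 from Gel/IL-12 and 0.40 ± 0.04 from Gel/Laponite. For Lcn2, with 168, 174 and 162 CPM in Gel/Laponite@IL-12, against 103, 108 and 111 CPM in Gel, 165, 161 and 149 CPM in Gel/IL-12 and 132, 129 and 132 CPM in Gel/Laponite, the difference from Gel was 0.64 ± 0.04 and that from Gel/Laponite was 0.36 ± 0.04, while that from Gel/IL-12 did not pass the test (adjusted p = 0.229). With the IR-Con libraries in the fit, the calls over Gel/Laponite were lost by edgeR's test for C3 (adjusted p = 0.328), Steap4 (0.749) and Lcn2 (0.328), and those over Gel and the C3 and Steap4 calls over Gel/IL-12 were kept. Of the 14 chemokines 7, 6 and 5 were higher than in Gel, Gel/IL-12 and Gel/Laponite, and 1, 2 and 0 were lower. Of the 16 acute-phase genes 6, 3 and 6 were higher and 1, 2 and 0 lower, in the same order. Ptx3 and Serpina3n were lower than in Gel/IL-12, and Serpina3n was also lower than in Gel. With the IR-Con libraries in the fit these calls of Ptx3 and Serpina3n were lost.

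**Figure D4:**
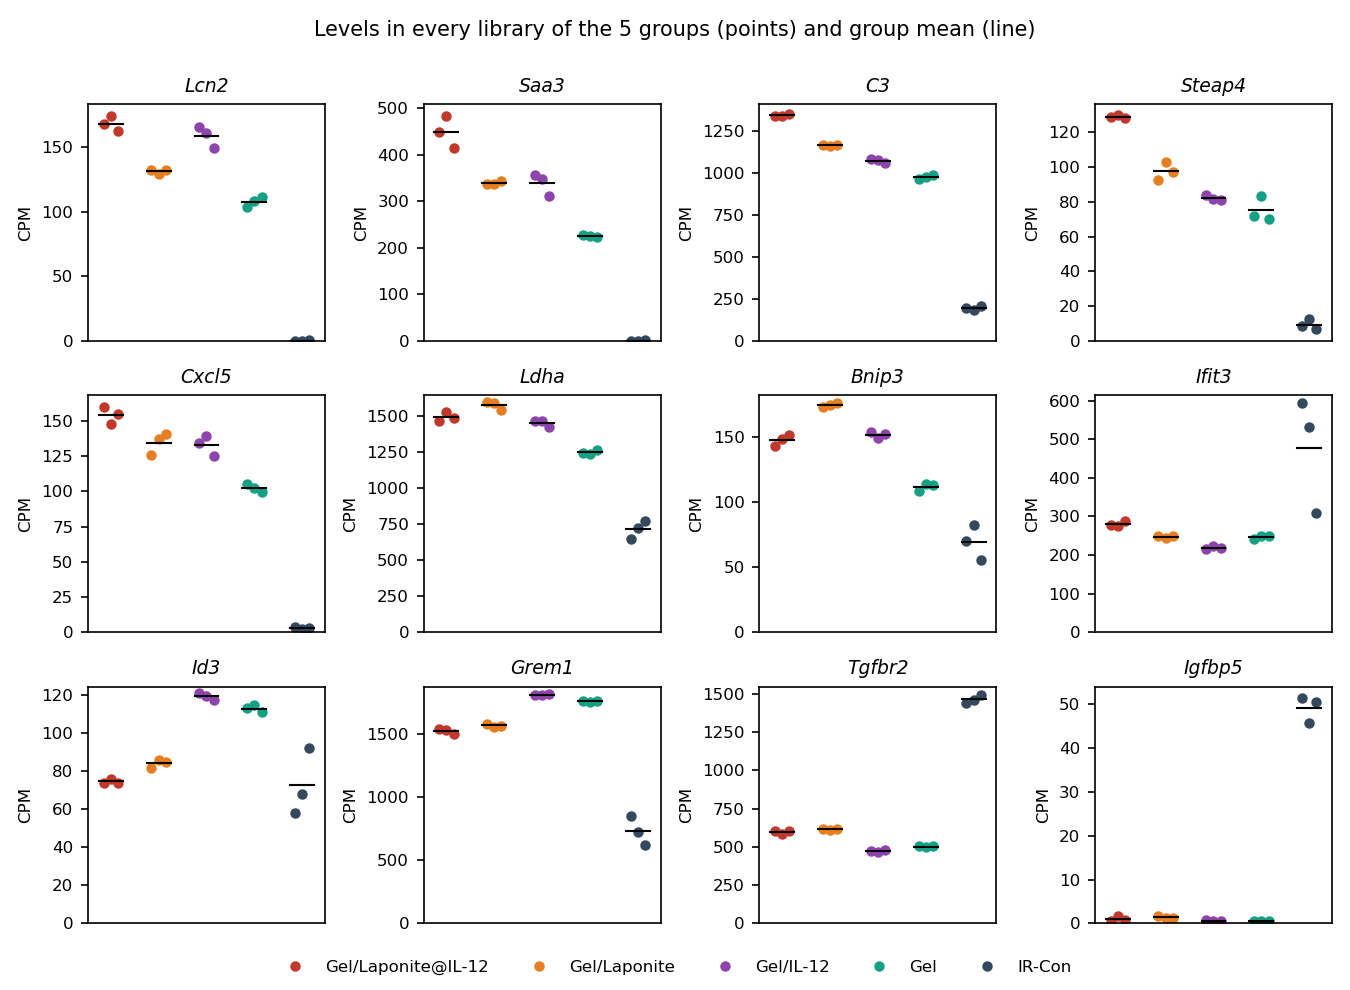
CPM of 12 genes in each library of the 5 groups, from Gel/Laponite@IL-12 on the left over Gel/Laponite, Gel/IL-12 and Gel to IR-Con on the right, on linear axes from 0, with a line at the group mean. C3 and Steap4 are highest in the complete gel, Ldha and Bnip3 are highest in Gel/Laponite, and Tgfbr2 and Igfbp5 are highest in IR-Con.

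Interferon-induced genes, of which 14 were lower and 2 higher than in IR-Con, were higher than in the other gels wherever they differed. Of the 39 genes 19 were higher than in Gel, 33 than in Gel/IL-12 and 15 than in Gel/Laponite, and 0 were lower in any. The median differences were 0.13, 0.22 and 0.11 on the log2 scale. Ifit3 had 277, 274 and 288 CPM in Gel/Laponite@IL-12, against 240.3, 249.9 and 248 CPM in Gel, 216, 224 and 218 CPM in Gel/IL-12 and 249.9, 244 and 249 CPM in Gel/Laponite, with log2 differences of 0.18 ± 0.03 from Gel, 0.35 ± 0.03 from Gel/IL-12 and 0.17 ± 0.03 from Gel/Laponite. In each of these the 3 libraries of the complete gel were above all of the other gel. These calls were lost when the IR-Con libraries, which spread most in this gene, entered the fit.

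Glycolysis and hypoxia genes were higher than in Gel and, for some members, lower than in Gel/Laponite. Of 33 glycolysis genes 16 were higher than in Gel, 1 than in Gel/IL-12 and 0 than in Gel/Laponite, where 7 were lower. Of 37 hypoxia genes 15 were higher and 1 lower than in Gel, and 0 were higher and 8 lower than in Gel/Laponite. Bnip3 had 143, 148 and 152 CPM in Gel/Laponite@IL-12, against 108, 114 and 113 CPM in Gel, 154, 149 and 152 CPM in Gel/IL-12 and 173, 175 and 176 CPM in Gel/Laponite (0.40 ± 0.03 over Gel and -0.24 ± 0.03 over Gel/Laponite). Ldha had 1470, 1533 and 1488 CPM in Gel/Laponite@IL-12, against 1247, 1238 and 1265 CPM in Gel, 1466, 1466 and 1424 CPM in Gel/IL-12 and 1598, 1590 and 1546 CPM in Gel/Laponite (0.25 ± 0.02 over Gel). BMP and TGF-beta genes were lower, 13 of 46 than in Gel, 14 than in Gel/IL-12 and 3 than in Gel/Laponite, with 2, 3 and 1 higher. Id3 had 73.8, 76.0 and 74.1 CPM in Gel/Laponite@IL-12, against 113, 115 and 111 CPM in Gel, 121, 119.8 and 117 CPM in Gel/IL-12 and 81.6, 86.0 and 84.99 CPM in Gel/Laponite, and the complete gel was lower than Gel (-0.60 ± 0.04) and Gel/IL-12 (-0.68 ± 0.04). Grem1 had log2 differences of -0.21 ± 0.02 from Gel and -0.25 ± 0.02 from Gel/IL-12, and Tgfbr2 of 0.24 ± 0.02 and 0.32 ± 0.02. With the IR-Con libraries in the fit both calls were lost for Grem1 (adjusted p = 0.527 and 0.283) and kept for Tgfbr2, and that of Bnip3 over Gel/Laponite was lost too. For Grem1 and Tgfbr2 the complete gel lay between those gels and IR-Con. Dlk1, a membrane protein that holds back fat cell formation, had 191, 175 and 184 CPM in Gel/Laponite@IL-12, against 265, 268 and 258 CPM in Gel, 255.5, 251.4 and 263 CPM in Gel/IL-12 and 219, 205 and 199.8 CPM in Gel/Laponite (-0.53 ± 0.03 from Gel). The 56 mitosis genes had median log2 differences of 0.022 from Gel, 0.007 from Gel/IL-12 and 0.035 from Gel/Laponite.

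**Figure D5:**
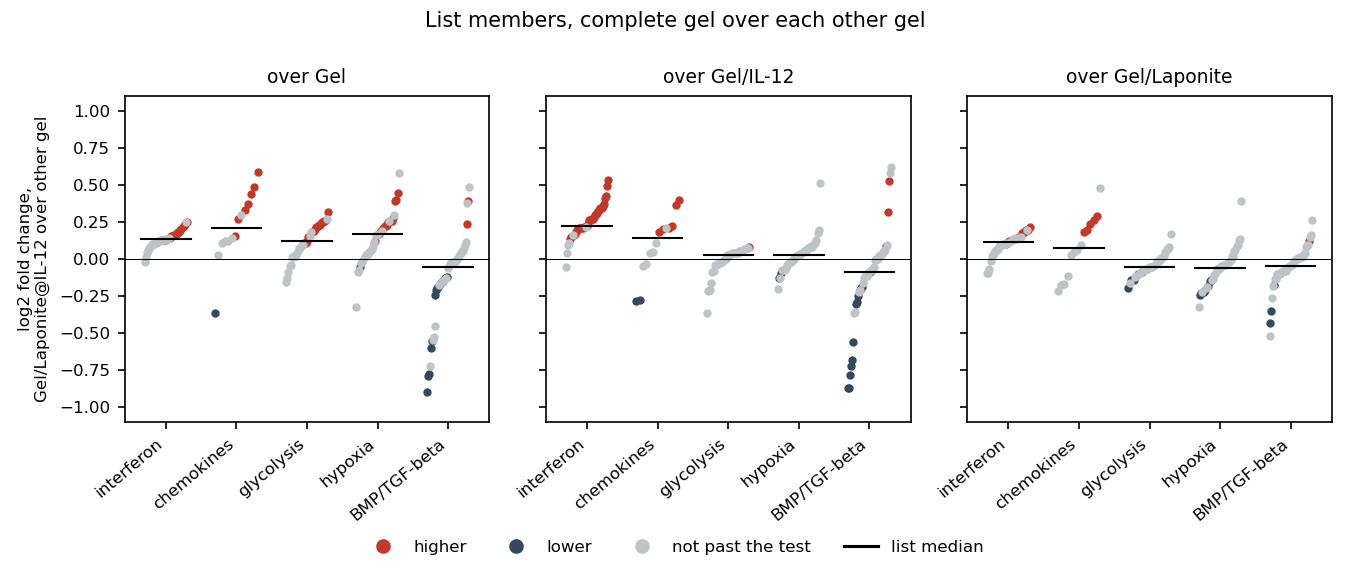
Log2 fold change of Gel/Laponite@IL-12 over Gel, Gel/IL-12 and Gel/Laponite for the tested members of 5 lists, ordered by value within a list, with a line at the list median. Red points were higher and dark blue points lower by edgeR's test, and grey points did not pass it. The interferon medians are 0.13, 0.22 and 0.11, and the glycolysis medians are 0.12, 0.03 and -0.06.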

How the data were processed

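RNA of mouse BM-MSCs was sequenced on a HiSeq 2000 after Trizol extraction, and the authors mapped it to mm10. The aligner, the counter and the test they used are not given in the sources used here. The deposited table holds a whole-number count per gene and library, which was the only unit used. It also holds 15 columns of FPKM that the authors computed and 20 columns of group means, deposited as a normalized signal. A further 30 columns of the authors' own 10 comparisons hold log2 fold changes and p-values. None of these was used.

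Counts of the 6 libraries were filtered with filterByExpr (minimum count 10, minimum total 15), scaled by TMM and tested with edgeR 4.0.16 in R 4.3.3 (quasi-likelihood, robust, Benjamini-Hochberg adjusted p under 0.05). SE is the size of the log2 fold change over the root of F. One fit of 12 libraries served the comparisons among gels. The tests were checked on simulated data. Alternatives were other scaling, no filter, no robust estimation, DESeq2 1.42.0, limma 3.58.1 with voom, all 15 libraries, a replicate block, and each library left out. Genes named were the 15 highest and 15 lowest called genes that averaged 10 CPM or more and whose groups did not overlap, the 10 most abundant, up to 5 called members at each end and up to 4 abundant members not called of each list, genes of the paper's text or primer table, and up to 8 with the smallest adjusted p over each gel. Only a part of these is printed. Genes outside this rule were named for their promoters or their position in a list after their values were seen. The 47 gene lists and 8 marker lists, like the comparison itself, were chosen with earlier results of these data known.

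Gene positions are from GENCODE M21 on GRCm38, matched by gene ID. RefSeq promoters on GRCm38.p6 were matched by symbol for 10299 of 14745 tested genes and scanned over 250 bases. Windows of 50 bases served to find sequence shared between genes. The same replicate number did not pair libraries, since deviations from the group means correlated at 0.00131, 0.0221 and -0.00281. A few genes of the lists are not reported here.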

Additional observations from a re-analysis of the deposited data

How the results depend on the processing

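The number of genes that differed between Gel/Laponite@IL-12 and IR-Con, 4484, was 4508 with size factors of DESeq2, 4910 without a filter, 4158 with DESeq2, 4688 with limma voom and 4473 without robust estimation. It was 6924 with all 15 libraries in one fit, and it ran between 2638 and 6276 with a library left out. With the replicate number as a block it was 4598, although the numbers did not pair the libraries, and under that block Malat1 (adjusted p = 0.0583), Ifit3, Ifit3b and Lox lost their calls. The differences from Gel, Gel/IL-12 and Gel/Laponite fell to 49, 47 and 1 genes with all 15 libraries, and the last was 158 with only its 6 libraries. With a library left out these counts ran from 359 to 426, from 449 to 620 and from 121 to 344. With the block they were 468, 659 and 265. The median of the adipogenic list ran from -0.015 without IR-Con replicate 1 to 0.217 without Gel/Laponite@IL-12 replicate 3. Among genes that did not pass the test, Runx2 ran from -0.1598 to 0.003142 with a library left out, Id3 from -0.09949 to 0.2433 (-0.005472 without IR-Con replicate 2) and Akt1 from -0.09016 to 0.09084, with 0.01658 without Gel/Laponite@IL-12 replicate 2 and 0.02389 without a filter, all on the log2 scale. The cause of these shifts was not tested. Depth limits the folds of Lcn2 and Hp, which rest on 0 to 17 reads in each IR-Con library.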

Other observations

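The difference between Gel/Laponite@IL-12 and IR-Con moved with the exon length of genes. In 5 equal groups of the tested genes from shortest to longest, the median log2 fold change was 0.11, 0.06, 0.02, -0.03 and -0.13. The share called higher was 19.4% in the group of the shortest genes and 9.19% in the longest, and the share called lower was 8.51% and 25.2%. The size of this shift differed between IR-Con libraries. The mean of the gel libraries was also set against each IR-Con library, with 1 CPM added to both. The median log2 ratios of the shortest and longest genes were then 0.173 and -0.203 for replicate 1, 0.144 and -0.091 for replicate 2, and 0.032 and -0.05 for replicate 3. By annotated type, 661 processed pseudogenes had a median of 0.23, 369 lincRNAs -0.22, 397 antisense genes -0.24 and 313 unconfirmed transcript models (TEC) -0.54, against 0.001 for 12477 protein-coding genes. The part of gene length in the results of the lists was not tested.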
